A study of Drosophila melanogaster with 3 samples.

Results

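The Eig71E genes, also called L71 genes, form a late puff cluster on chromosome arm 3L of Drosophila melanogaster. The cluster was described here through 10 genes chosen by symbol, Eig71Ea to Eig71Ek without Eig71Ee, of 13990 genes with a deposited expression value. All 10 were present in both deposited tables. The members were taken as a list of symbols, so no measured value entered their choice, although earlier results of these data were known.

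Puffs are swollen, actively transcribed bands of the giant salivary gland chromosomes, and they follow the ecdysone pulses that end larval life. Ecdysone binds the receptor formed by EcR and Ultraspiracle and first switches on early genes, among them the transcription factor genes br and Eip74EF. The products of these early genes then switch on late genes, of which the Eig71E cluster is a textbook example in the salivary gland of late larvae and prepupae. The Eig71E genes encode small secreted peptides rich in cysteine that have been likened to defensins.

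RNA was sequenced from 3 libraries of wandering larvae of the third instar, with 1 library per group. The control library (Act>control) carried the Actin5c-Gal4 driver, which is active in most tissues, and no hairpin is named in its label. The RNAi library (Act>Aac11-RNAi) carried the same driver with a UAS hairpin against Aac11, the fly counterpart of API5, an apoptosis inhibitor gene. The other library, labelled enGFP+Yki+Aac11-IR and called the Yki library here, carried the same kind of hairpin with enGFP and Yki, and no library with enGFP and Yki but without the hairpin was analysed here. Larvae were kept at 25 degrees Celsius, sorted by GFP fluorescence and pooled, with 10 to 20 larvae for each Act genotype. No label states the sex of the larvae. Wing disc cells are named as the cell type of every sample, but the protocol has larvae ground in Trizol, with no dissection described.

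With 1 library per group there was no replicate check and no test between groups, and every difference below describes these libraries. In RNA of pooled larvae, fewer cells of a type and less RNA per cell cannot be told apart. Values are FPKM, which are fragments per kilobase of transcript scaled to library size. Most of the low FPKM values lay close to steps of 1 fragment. These steps corresponded to library sizes of about 6120000 fragments for the control, 31800000 for RNAi and 17900000 for the Yki library. At a given FPKM and transcript length, the control thus had the fewest fragments behind a value. Fragment numbers given below were read back from these steps at the annotated transcript length and are approximate, and 95% intervals cover counting error only. Aac11 itself measured 150 FPKM in the control, 78.1 FPKM in the RNAi library and 117 FPKM in the Yki library.

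The 10 genes lay within 12684 bp of chromosome 3L, from 15649126 to 15661809 in Release 6 (dm6) coordinates. They were arranged as 5 divergent pairs, each with 1 gene on the minus strand and 1 on the plus strand whose annotated starts faced each other across 232 to 282 bp. From left to right the pairs were Eig71Ea with Eig71Eb, Eig71Ec with Eig71Ed, Eig71Ef with Eig71Eg, Eig71Eh with Eig71Ei, and Eig71Ej with Eig71Ek. The transcripts were short, at 403 to 639 nt, and no annotated gene overlapped any of the 10. Eig71Ee, which lies inside the cluster from 15654472 to 15656010, has a longer transcript of 1486 nt and is counted among the salivary glue genes.

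Expression of the cluster was dominated by Eig71Ej of the right-hand pair in both Act libraries, and Eig71Ek stood out beside it in the RNAi library. Eig71Ej supplied 66.2% of the summed FPKM of the 10 genes in the control and 58.7% in the RNAi library, and Eig71Ek supplied 9.87% and 24.2%. The sum itself came to 81.1 FPKM in the control against 136 FPKM with the hairpin. The Yki library listed all 10 genes at 0.

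**Figure D1:**
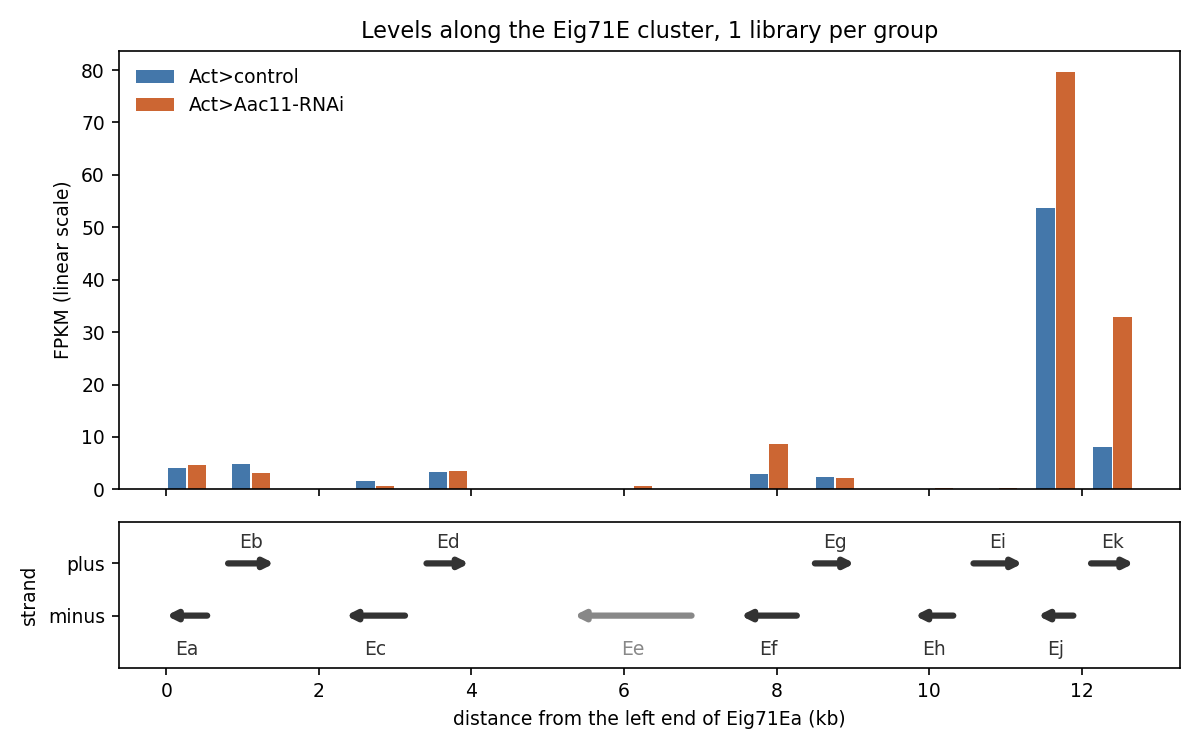
FPKM of each gene (bars, linear scale) by distance along the cluster in kb, with blue for the control library and orange for the RNAi library, and the annotated genes drawn below as arrows in the direction of transcription. The Eig71Ej and Eig71Ek pair at the right end reached 79.7 and 32.8 FPKM in the RNAi library, whereas the other genes stayed under 9 FPKM, and Eig71Ee (grey) is not a member.

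Eig71Ek differed most between the Act libraries. This gene (FBgn0014851, 15661248 to 15661809, plus strand) measured 8.0 FPKM in the control and 32.8 FPKM under RNAi, and the Yki library listed it at 0. About 11 fragments lay behind the control value and 240 behind the RNAi value, the latter equivalent to 46.2 fragments at the depth of the control. The ratio of RNAi to control FPKM was 4.10, with a counting interval from 2.25 to 8.33. The whole interval thus lay above 2-fold. On the log2 scale with a pseudocount of 1 FPKM, which is used for all calls below, the difference was 1.91.

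Its partner Eig71Ej (FBgn0014850, 15660549 to 15661015, minus strand) was the most abundant gene of the cluster in both Act libraries. Its level was 53.7 FPKM in the control and 79.7 FPKM under RNAi, on about 62 and 475 fragments, and the Yki library listed it at 0. Its level exceeded that of 80.5% of all genes in the control and of 88.8% in the RNAi library. The ratio was 1.48, with a counting interval from 1.14 to 1.97 that excluded 1 and, at the deposited scaling only, 2. The log2 ratio with the pseudocount was 0.56. It was 0.78 when the upper quartiles were set equal and 0.93 when the median of genes of like transcript length was subtracted. Whether the difference reached 2-fold was thus not settled. The starts of Eig71Ej and Eig71Ek are 232 bp apart, yet the log2 difference of Eig71Ek was larger by 1.35, and the counting intervals of their ratios did not overlap.

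Eig71Ef was the other gene past 2-fold. It (FBgn0004593, 15656655 to 15657390, minus strand) measured 3.02 FPKM in the control and 8.59 FPKM under RNAi, and the Yki library listed it at 0. About 4 fragments lay behind the control value and 56 behind the RNAi value. The ratio was 2.85, and its counting interval ran from 1.05 to 10.8, so the control depth did not settle whether the difference reached 2-fold. Its partner Eig71Eg (FBgn0004594, 15657628 to 15658149, plus strand) measured 2.36 and 2.13 FPKM on about 3 and 13 fragments, with a ratio of 0.900 and an interval from 0.247 to 4.93.

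The left-hand pairs were low in both Act libraries and their ratios could not be told from 1 at this depth. Eig71Ea (FBgn0004588, 15649126 to 15649661, minus strand) measured 4.15 FPKM in the control and 4.65 FPKM under RNAi, on about 5 and 29 fragments. Eig71Eb (FBgn0004589, 15649936 to 15650541, plus strand) went the other way, at 4.92 and 3.12 FPKM on about 8 and 25 fragments. The intervals of the ratios ran from 0.428 to 3.70 for Eig71Ea and from 0.278 to 1.63 for Eig71Eb, so both included 1.

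Eig71Ec (FBgn0004590, 15651479 to 15652254, minus strand) had the lowest ratio of the cluster, at 0.434, with an interval from 0.121 to 1.93. Its level was 1.55 FPKM in the control and 0.671 FPKM under RNAi, on about 4 and 9 fragments. Eig71Ed (FBgn0004591, 15652537 to 15653096, plus strand) measured 3.37 and 3.42 FPKM on about 4 and 22 fragments, with an interval from 0.344 to 4.04. These values allow either direction for both genes.

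The remaining pair was close to undetected. Eig71Eh (FBgn0014848, 15658936 to 15659441, minus strand) had a control value of 0 and an RNAi value of 0.266 FPKM, on about 2 fragments. Eig71Ei (FBgn0014849, 15659707 to 15660351, plus strand) likewise had a control value of 0, and an RNAi value of 0.353 FPKM on about 4 fragments. For a count of 0 a fixed limit of 3 fragments was used, which corresponds to 2.15 FPKM for Eig71Eh and 1.56 FPKM for Eig71Ei. The exact Poisson intervals of the control end higher, at 2.64 and 1.91 FPKM. All these limits lie above the RNAi values, so no direction was detectable and no fold was formed.

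**Figure D2:**
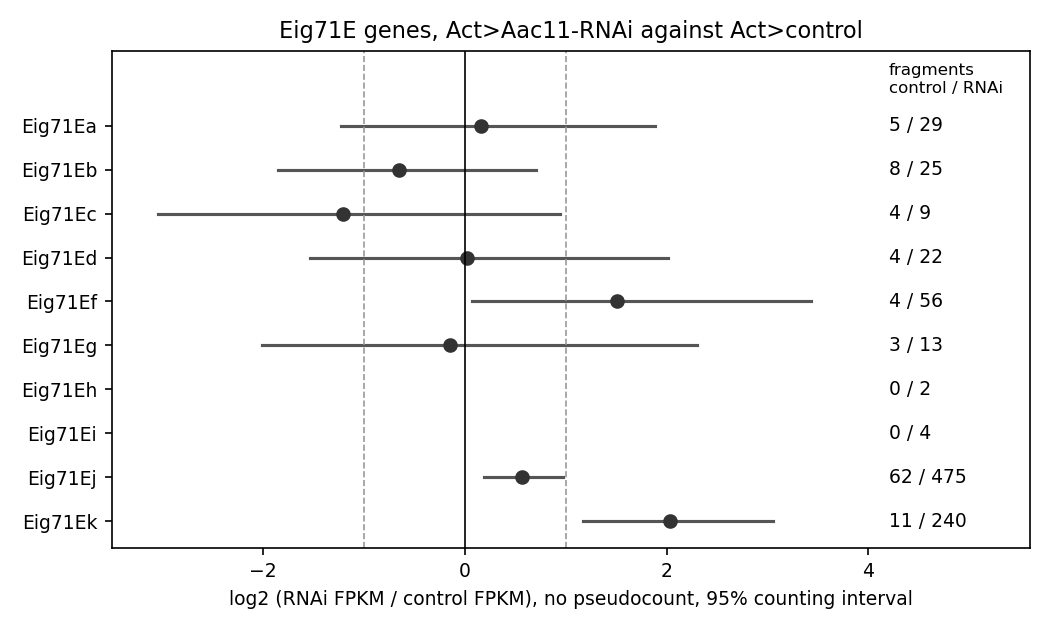
Ratio of RNAi to control FPKM on the log2 scale without a pseudocount (points) with 95% counting intervals (lines) for the 10 genes, and approximate fragment numbers at the right. Dashed lines mark 2-fold. The intervals of Eig71Ef, Eig71Ej and Eig71Ek lie above 0, 5 others span it, and Eig71Eh and Eig71Ei have no ratio because they were listed at 0 in the control.

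Counted over all 10 genes, 2 exceeded a 2-fold rise in level in the RNAi library (Eig71Ef and Eig71Ek) and 0 a 2-fold drop. Genes were kept for the background when their mean over both Act libraries was at least 1 FPKM. Past the same threshold were 3.70% of 11330 kept genes on the higher side and 17.0% on the lower side. Of the 10 genes, 8 were kept, Eig71Eh and Eig71Ei being under the filter. Without the filter, 3.31% of 13990 genes were higher and 13.9% lower. The log2 ratio was positive for 7 of the 10 genes and negative for 3, but the positives include Eig71Eh and Eig71Ei, for which no direction was detectable. The median was 0.24 over the 10 genes and 0.07 over the 8 kept ones, compared with 0.00 over all genes and -0.03 over the kept genes. The sign of Eig71Eg, at -0.10, turned positive when the upper quartiles were set equal or when the median of genes of like transcript length was subtracted.

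Short transcripts differed from the rest of the transcriptome in this comparison, and the 10 genes all have short transcripts. Among 745 other kept genes with transcripts of 373 to 669 nt, 7.92% lay past 2-fold on the higher side and 35.0% on the lower side, and the median log2 ratio was -0.42. The middle 50% of these genes ran from -1.64 to -0.06. The 10 genes ranged from -0.61 (Eig71Ec) to 1.91 (Eig71Ek), and none lay in the group of short transcripts near -2. For Eig71Eh and Eig71Ei, at 0 in the control, the pseudocount allowed no negative log2 ratio. Eig71Ec and Eig71Eg, at 1.55 and 2.36 FPKM in the control, could not have reached -2 either. For these genes the absence from the group was thus fixed by the control level. A group near -2 was present among all genes as well. The bin from -2 to -1.75 held 13.3% of the short transcripts and 6.21% of all kept genes.

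**Figure D3:**
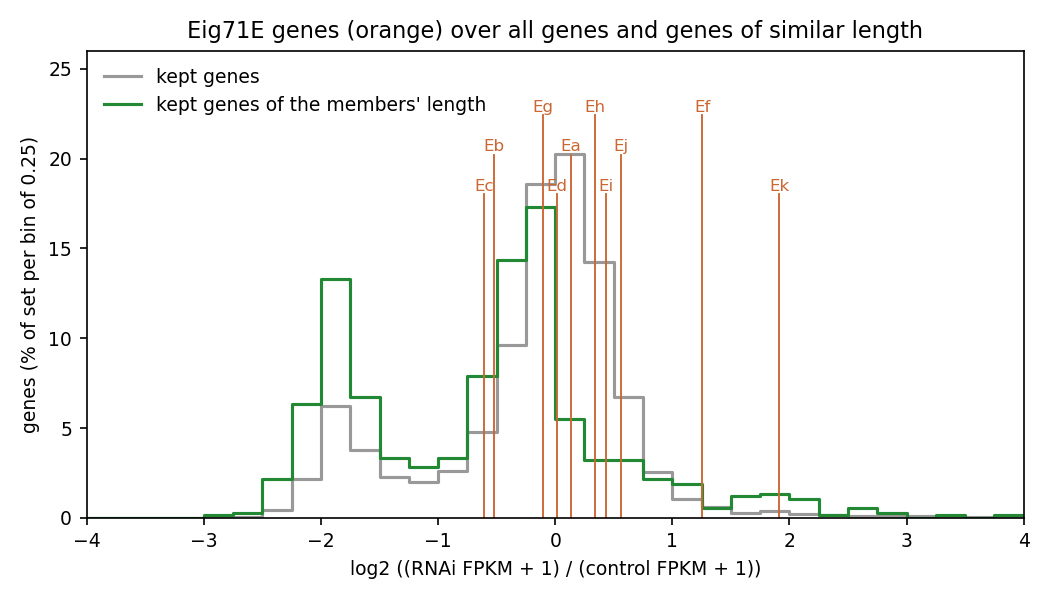
Share of genes (percent per bin of 0.25) by log2 ratio of RNAi to control with a pseudocount of 1 FPKM, for all 11330 kept genes (grey) and the 745 kept genes of similar transcript length (green), with the 10 Eig71E genes as orange lines whose heights carry no value. Both curves have a second mode near -2, higher in the green one, and all 10 genes lie to the right of that mode. At their control levels Eig71Ec, Eig71Eg, Eig71Eh and Eig71Ei could not have reached -2 with this pseudocount.

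Between neighbours in the order of levels, only the top of the cluster was resolved. In the control, the counting interval of Eig71Ej (41.3 to 69.1 FPKM) lay above that of Eig71Ek (3.90 to 14.0 FPKM), and every later pair of neighbours in the order overlapped. In the deeper RNAi library, Eig71Ej (72.7 to 87.2 FPKM), Eig71Ek (28.9 to 37.3 FPKM) and Eig71Ef (6.51 to 11.2 FPKM) were separate from each other. Below them came Eig71Ea, Eig71Ed, Eig71Eb, Eig71Eg, Eig71Ec, Eig71Ei and Eig71Eh, each overlapping its neighbour, and Eig71Ef overlapped Eig71Ea. Genes further apart in the order could still be separate, as Eig71Ea (3.11 to 6.67 FPKM) was from Eig71Ec (0.306 to 1.27 FPKM) in the RNAi library.

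The sum over the cluster depended on the right-hand pair, whose genes were left out in turn after their values had been seen. For all 10 genes about 101 control and 875 RNAi fragments gave a depth-scaled ratio of 1.67, with a counting interval from 1.36 to 2.07. Without Eig71Ej the ratio was 1.98, with an interval from 1.42 to 2.82, and without Eig71Ek it was 1.36, with an interval from 1.09 to 1.72. Without both, the other 8 genes had about 28 and 160 fragments and a ratio of 1.10, with an interval from 0.734 to 1.71 that included 1, and their summed FPKM gave 1.20. Since Eig71Ek has the largest ratio of the cluster, leaving it out had to lower the value.

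In the Yki library the fixed limit of 3 fragments for a value of 0 is 0.885 FPKM for Eig71Ej and 0.724 FPKM for Eig71Ek. The exact Poisson intervals end at 1.09 and 0.890 FPKM on the scale of that library. A value of 0 was listed there for 24.7% of all genes and for 14.3% of the genes kept in the Act libraries. Among kept genes with a mean under 10 FPKM in the Act libraries, the share was 26.5%. Its table was normalized on its own, so levels there were not divided by those of the Act libraries. The label does not settle whether this library came from the same tissue.

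The genes inside and beside the cluster measured less than Eig71Ej and Eig71Ek in both Act libraries. Inside it, Eig71Ee measured 0.128 FPKM in the control, 0.570 FPKM under RNAi and 0.0876 FPKM in the Yki library, on about 1, 23 and 2 fragments. Its ratio of RNAi to control was 4.44, with an interval from 0.721 to 183 that gives no direction. To the left, comm3, the nearest gene with a value, measured 2.91 and 5.95 FPKM in the Act libraries. Its log2 ratio with the pseudocount was 0.83, under the 2-fold threshold but above that of most members. To the right, CG7304, which begins 17911 bp away, had a control value of 0 and an RNAi value of 0.0426 FPKM.

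The hormone receptor and the early genes that act upstream of the late puffs were present in both Act libraries. Of 18 genes in this list with a value, 16 were kept. Of the 16, 2 passed 2-fold on the higher side and 0 on the lower side, and the median log2 ratio of the 16 was 0.53. For this list and those below, the background over all kept genes was 3.70% higher and 17.0% lower, with a median of -0.03. EcR, the ecdysone receptor gene, measured 37.6 FPKM in the control and 66.8 FPKM under RNAi, and usp, which encodes its partner Ultraspiracle, measured 31.3 and 38.8 FPKM. The early gene br, whose product is required for full Eig71E transcription, measured 6.64 and 23.4 FPKM, a log2 ratio of 1.68. Eip74EF, which encodes the other early regulator known to act on the cluster, measured 28.0 and 42.3 FPKM, under the 2-fold threshold.

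The second gene of that list past 2-fold was Eip93F, a regulator of salivary gland death and of adult fate, at 36.5 and 77.4 FPKM, a log2 ratio of 1.07. Eip75B, an early nuclear receptor gene, measured 35.7 and 47.7 FPKM. The prepupal regulator ftz-f1 measured 5.24 and 9.78 FPKM. Hr46, which encodes the nuclear receptor that precedes ftz-f1, measured 2.23 and 1.31 FPKM, and Eip78C measured 28.2 and 23.2 FPKM. These were the 2 genes of the list with negative log2 ratios, at -0.49 and -0.27. In the Yki library, which listed every Eig71E member at 0, br measured 181 FPKM, EcR 46.3 FPKM and Eip74EF 26.5 FPKM.

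Other ecdysone-inducible genes were mixed in direction, with 5 positive and 6 negative log2 ratios. Of 11 kept genes, 1 passed 2-fold on the higher side, 0 on the lower side, and the median log2 ratio was -0.08. ImpL3, which encodes lactate dehydrogenase, was the 1 higher gene, at 11.1 and 41.2 FPKM. Eip71CD, which encodes a methionine sulfoxide reductase, measured 123 and 172 FPKM, and ImpL2, which encodes an insulin-binding protein, measured 69.1 and 118 FPKM. The most abundant gene of the list, ImpE2, had the largest negative difference, at 2629 and 1558 FPKM, a log2 ratio of -0.75. Eip55E measured 38.3 and 34.8 FPKM, and Fbp1, a fat body gene, measured 1551 and 1293 FPKM.

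**Figure D4:**
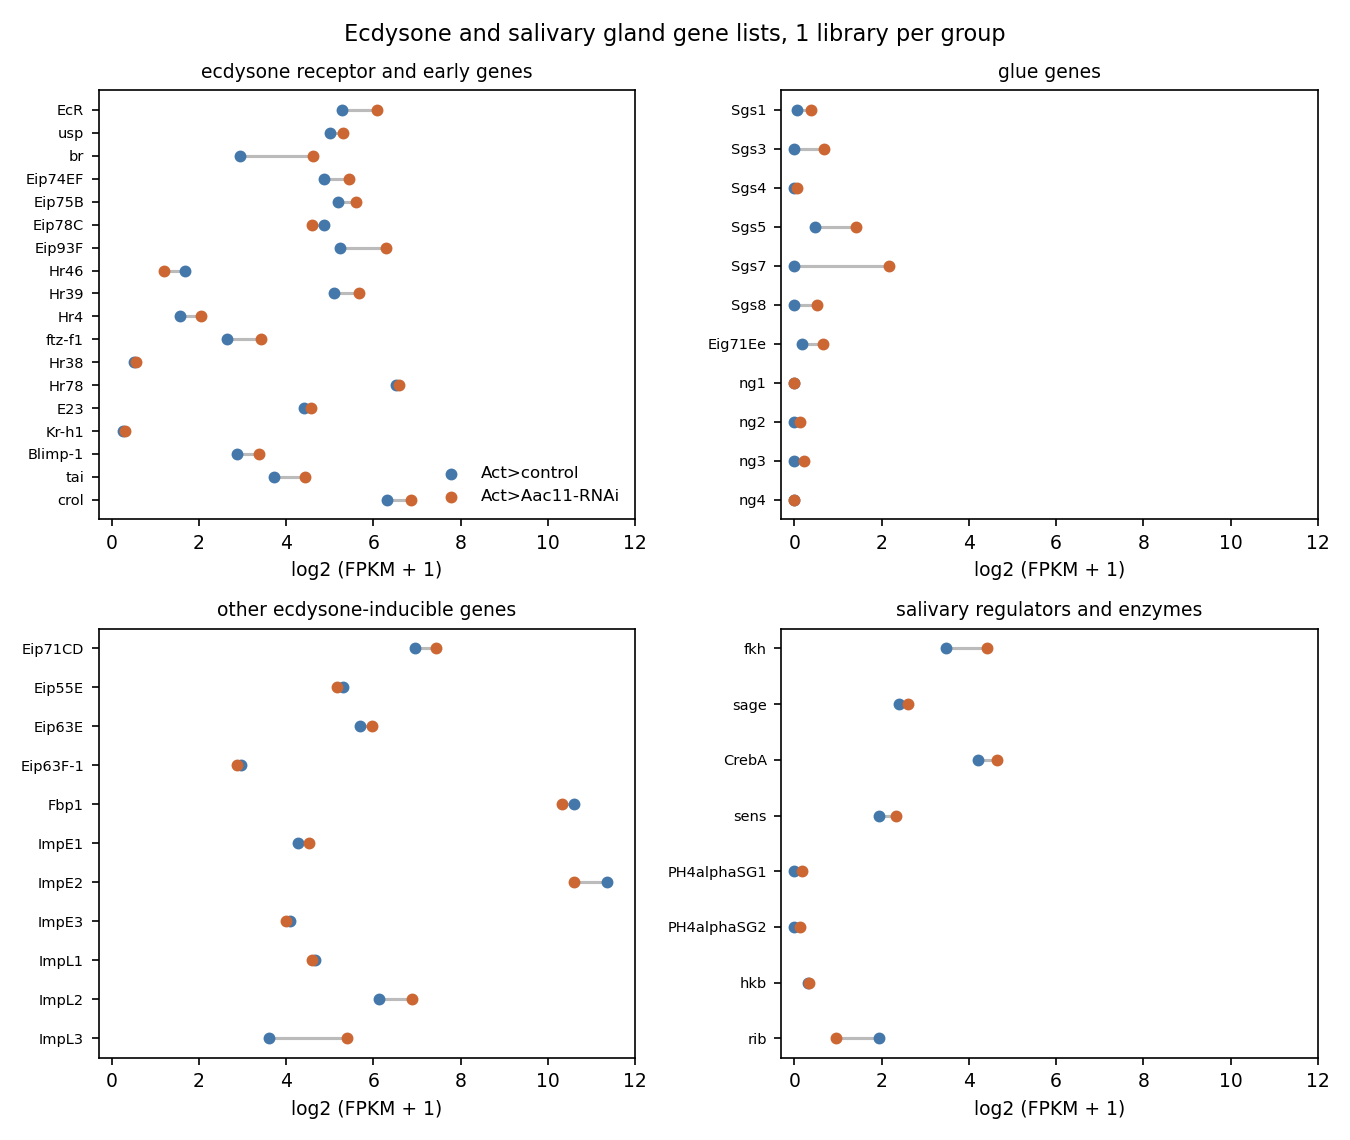
Level on the log2(FPKM + 1) scale of each gene of 4 lists in the control (blue) and RNAi (orange) libraries, joined by a line. br, Eip93F, ImpL3 and Sgs7 are past 2-fold to the right. The glue genes sit near 0 in the control, and Sgs7, listed at 0 there, has the longest line among them but no detectable direction.

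Among markers of the salivary gland, the tissue for which the cluster is known, the glue genes were near 0 in the control. Most of the regulators of the gland were not. The glue genes, which encode the secretion that fixes the pupa to its surface, had a summed level over 11 genes of 0.559 FPKM in the control, 7.33 FPKM in the RNAi library and 8.03 FPKM in the Yki library. In the control 8 of the 11 were listed at 0, among them Sgs3, Sgs4, Sgs7 and Sgs8. Their highest control value was 0.387 FPKM (Sgs5), well under the 53.7 FPKM of Eig71Ej. Of 2 kept glue genes, 1 passed 2-fold on the higher side (Sgs7) and 0 on the lower side. In the RNAi library Sgs7 measured 3.48 FPKM on about 12 fragments, but its control limit was 4.62 FPKM, so no direction was detectable for it. Over all 11 genes, 9 log2 ratios were positive and 0 negative. Sgs1 measured 0.0437 and 0.303 FPKM on about 1 and 36 fragments, and its ratio interval, from 1.17 to 282, excluded 1. Sgs3 had an RNAi value of 0.598 FPKM on about 17 fragments, beside a control limit of 0.548 FPKM at 3 fragments.

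Of 8 salivary gland regulators and enzymes, 5 were kept and 0 passed 2-fold in either direction with the pseudocount. PH4alphaSG1 and PH4alphaSG2, which encode prolyl hydroxylases named for the gland, had control values of 0 and RNAi values of 0.127 and 0.0850 FPKM. The forkhead factor gene fkh, active in the gland and in gut, measured 10.1 and 20.4 FPKM, a log2 ratio of 0.94, and a ratio of 2.01 without the pseudocount. The gland factor gene sage measured 4.25 and 5.06 FPKM, and rib measured 2.83 and 0.925 FPKM, a log2 ratio of -0.99, and a ratio of 0.327 without the pseudocount. The summed level of the list was 37.8 FPKM in the control, 54.9 FPKM in the RNAi library and 31.6 FPKM in the Yki library.

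Markers of other tissues differed between the libraries as well, and their part in the Eig71E values was not tested. The summed level of 7 fat body genes was 12844 FPKM in the control, 8447 FPKM in the RNAi library and 27.7 FPKM in the Yki library, with 1 of 7 past 2-fold on the lower side under RNAi and 0 on the higher side. Lsp2, a larval serum protein gene, made up most of this sum, at 8453 and 5243 FPKM in the Act libraries, whereas Lsp1gamma, another such gene, was higher under RNAi at 156 and 308 FPKM. The sum of 14 testis genes was 3518, 909 and 1.21 FPKM. All 14 had negative log2 ratios, and 13 passed 2-fold on the lower side, beside 17.0% of all kept genes. The sum of 7 midgut genes was 32.8 FPKM in the control, 118 FPKM under RNAi and 0 in the Yki library, and both kept members, the lysozyme genes LysB and LysD, were higher. LysD carried most of it, at 28.9 and 102 FPKM, while LysP, at 0.815 and 0.315 FPKM, and alphaTry, at 0.251 and 0.194 FPKM, had lower values under RNAi. The sum of 7 hemocyte genes was 195, 238 and 33.6 FPKM, and 0 of the 6 kept ones passed 2-fold. The sum was carried by crq, at 102 and 150 FPKM, and 4 of the 7 had negative log2 ratios. The sum of 8 wing disc genes was 124, 153 and 421 FPKM, and 0 of 8 passed 2-fold.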

How the data were processed

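FPKM values per gene were deposited as 2 tables, and the Yki library has a table of its own. Tools listed in the submitters' processing notes are TopHat2 2.0.12 and Cuffdiff 2.2.1, besides CASAVA 1.4, and the build is dm6. Not given in the sources used here are the annotation, strand setting and library scaling. The genes of the cluster are members of a family, so reads shared between copies could move single values.

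The 10 genes, the 9 gene lists and the settings were chosen with earlier results of these data known. The genes named were the 10 members, their neighbours, genes of the ecdysone and salivary gland lists and marker genes. The genes nearest in level are not reported, since the minimum of 5 FPKM set for them lay above the median levels of the cluster. Log2 ratios used a pseudocount of 1 FPKM, a filter at a mean of 1 FPKM and a threshold of 2-fold. No test was made, because each group had 1 library.

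Fragments were read back from single-transcript genes longer than 450 nt, on the model that FPKM is proportional to fragments over transcript length less an offset near 215 nt. Low values of the control, RNAi and Yki libraries, at shares of 59.6%, 60.2% and 67.3%, lay within 0.05 of a whole number. For a step not fitted to the values 10% would by chance. The step and offset were chosen to make this share largest, so 10% is not the chance level of the fitted step. At 403 to 639 nt the annotated length may differ from that of the authors, and Eig71Eb and Eig71Ei have 2 transcripts, so these fragment numbers are the least certain. Intervals of ratios are exact binomial and those of levels exact Poisson. Reads carry no molecular identifiers, so intervals cover counting error only. Transcript models and positions are those of Ensembl 115 on Release 6, and older symbols were matched through the NCBI RefSeq gene table, which recognised 13734 symbols (98.2%).

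On simulated data the step returned 5990000 and 31900000 fragments for true values of 6000000 and 32000000. Of 200 genes simulated at 4-fold among 5494, 100% were called, and 0.397% of the unchanged genes were. The 200 were drawn from genes of at least 5 FPKM in the control, which in the cluster only Eig71Ej and Eig71Ek reached. These shares therefore do not carry over to the other members, and the simulation held counting error only. Alternatives were other pseudocounts, scalings, filters and a transcript length correction. Analyses used Python 3.11.15, numpy 2.4.6, pandas 2.3.3, scipy 1.17.1 and matplotlib 3.10.9.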

Additional observations from a re-analysis of the deposited data

How the results depend on the processing

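All 73 values of single genes of the cluster under the 8 alternatives stayed within their counting intervals or, for Eig71Eh and Eig71Ei, had no interval to compare with. Most of these intervals are wide and all were formed without a pseudocount, so staying inside them says little about the processing. Eig71Ek ranged from 1.54 to 2.28 on the log2 scale and Eig71Ef from 0.76 to 1.63. Eig71Eh ranged from 0.07 to 1.87 and Eig71Ei from 0.10 to 2.18. The count of genes at least 2-fold higher was 4 with a pseudocount of 0.1 FPKM, which added Eig71Eh and Eig71Ei, and 1 with a pseudocount of 5 FPKM, which left Eig71Ek. The count of lower genes was 1 with 0.1 FPKM (Eig71Ec, at -1.09). The median log2 ratio of the cluster, 0.24 as reported, was 0.08 with a pseudocount of 5 FPKM and 0.36 with 0.1 FPKM. It was 1.25 with a filter at 5 FPKM, which left 3 of the genes, and 0.61 after the median of the transcript length decile was subtracted. Over all kept genes, the higher count was 245 with a pseudocount of 5 FPKM and 636 with equal upper quartiles, under which the median over kept genes went from -0.03 to 0.17. No paired analysis was possible because each group has 1 library. No replicate could be left out for the same reason. Depth limits the control most, where 9 of the 10 genes rest on about 11 fragments or fewer.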

Other observations

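A pair of regulators of the hormone response differed widely in level between the Yki library and the Act libraries, in tables that were normalized separately. Kr-h1, a target of juvenile hormone that holds back metamorphosis, measured 0.195 FPKM in the control, 0.235 FPKM in the RNAi library and 44.5 FPKM in the Yki library. Eip93F, which promotes adult fate, measured 36.5, 77.4 and 0.126 FPKM. These genes were singled out after their values were seen, and neither the stage nor the tissue of the libraries was measured.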
